A study of Oryza sativa Japonica Group and Oryza sativa Indica Group and Oryza sativa Indica Group x Oryza sativa Japonica Group with 9 samples.

Results

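The hybrid F1, a cross of C92 with MH63, was compared with its parent C92 in shoots of 14-day-old rice seedlings. The comparison used 6 of the 9 libraries in the series: 3 of F1 (labelled C92×MH63 in the sample titles and MH63 x C92 as cultivar, an indica and japonica cross) and 3 of C92 (japonica). The 3 libraries of the indica parent MH63 entered the model fit and are given as values beside the results. All seedlings grew in water at 28 °C, with 16 h of light and 8 h of dark in a day and a light intensity of 100 μmol per square metre and second. The labels call the replicates biological but do not say which plants went into each, so the p-values cover the variation among these libraries, part of which may be technical. Loci with an FPKM (fragments per unit of locus length and of library size) of at least 1 in at least 3 of the 6 libraries were compared, 20859 of the 55783 loci in the files. A locus is said to have risen or fallen in F1 where the limma adjusted p was below 0.05. Fold changes are F1 over C92 on log2(FPKM + 1), which understates the change of low loci.

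An F1 hybrid carries a copy of each gene from either parent, in cells that hold the regulatory proteins of both. Crosses between indica and japonica rice are known for hybrid vigour, and gene expression in such hybrids often lies between the parents, though many genes depart from the middle. The young shoot of rice is mostly leaf blade and rolled leaf sheath. Its growing cells lay down a primary wall of cellulose loosened by expansins, and its vascular and fibre cells later add a secondary wall of cellulose and lignin.

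The files hold no gene names, and the gene table used here held 0 of the 55783 locus IDs. Gene lists were therefore made of locus IDs recalled from general knowledge and checked by chromosomal place alone. Their members are not named, except for 1 that is also given by ID for its difference in FPKM. In all, 279 loci were written in 27 lists: 171 were placed where the table has a gene of the intended symbol, 84 had no such symbol in the table, and 24 placed elsewhere were left out. Leaf genes fitted the tissue label. The loci of the Rubisco and Calvin cycle list, written for carbon fixation, summed to 18622, 18893 and 20102 FPKM in F1. Their sums in C92 were 17633, 14914 and 17146 FPKM. Most of each sum came from 1 member on chromosome 11, with 13453, 13040 and 13816 FPKM in F1. That member had 12954, 9944 and 12100 FPKM in C92. Of 8 root markers, 3 passed the filter. Of these 1 rose, against 9.97% of all tested loci, and it was not called without F1 library 3. The root list summed to between 13.4 and 18.3 FPKM in F1 and between 13.8 and 15.9 FPKM in C92. Of 4 markers of the shoot meristem, 0 passed, and no member exceeded 0.86 FPKM in any of the 6 libraries.

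FPKM summed to between 602005 and 623806 in each library. Loci above 0 numbered 32611, 33131 and 33329 in F1 libraries 1, 2 and 3, and 31709, 31772 and 32198 in C92. Depth relative to C92 library 1, read from the steps of low values, was 1.01, 1.24 and 1.18 in F1, and 1.03 and 1.14 in C92 libraries 2 and 3. F1 library 3 stood farther from C92 than the others did. Its correlation across tested loci with the C92 libraries was 0.926 to 0.933, against 0.950 to 0.963 for F1 libraries 1 and 2. With the MH63 libraries it was 0.929 to 0.937, against 0.936 to 0.938 for F1 library 1 and 0.918 to 0.933 for F1 library 2. Over all tested loci, library 3 was thus no closer to MH63 than library 1 by this measure. Correlations among the F1 libraries were 0.980 to 0.982. Results are given with and without F1 library 3 where it decides them.

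In F1, 2080 loci rose (9.97% of those tested) and 2925 fell (14%), together 5005 loci (24%). Most changes were under 2-fold: the median log2 fold change was 0.57 among risen loci, -0.68 among fallen loci and 0.02 over all tested loci. At 2-fold or more, 448 loci rose (2.15%) and 459 fell (2.2%). Which of these was larger depended on F1 library 3 and on the settings: without that library 407 rose and 252 fell, with no filter on low values 441 rose and 423 fell, and at a pseudocount of 0.1 in place of 1, 619 rose and 799 fell. The F1 libraries lay wholly above or below the C92 libraries at 8759 tested loci (42%; 20.8% above, 21.2% below), and at 4965 of the 5005 called loci. Without F1 library 3 the number called was 2879, without C92 library 2 it was 3017, and without C92 library 3 it was 3173. The genome reference used for alignment is not given in the sources used here, so poorer matching of reads from the MH63 copies in F1 cannot be told apart from lower expression.

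**Figure D1:**
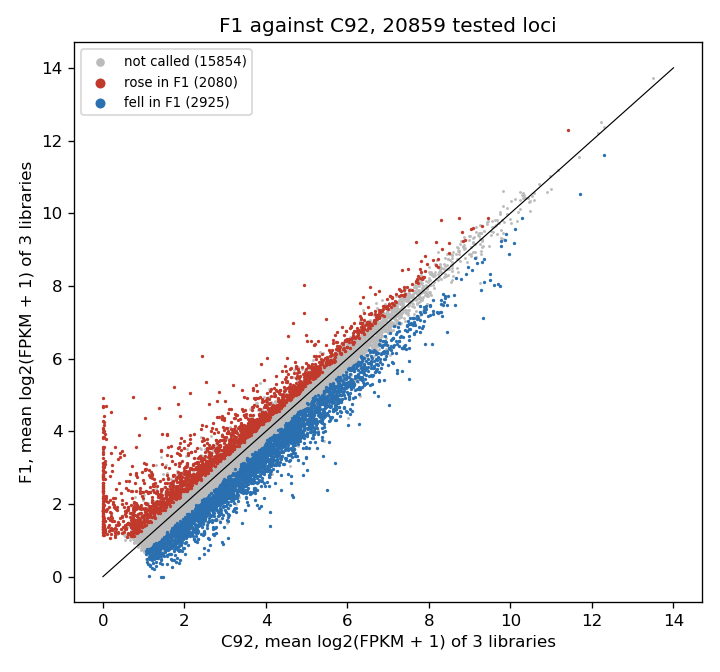
Mean log2(FPKM + 1) of the 3 F1 libraries (vertical axis) against that of the 3 C92 libraries (horizontal axis), 1 point for each of 20859 tested loci; the line marks equal levels. Risen loci (red, 2080) include a column at a C92 level of 0, while fallen loci (blue, 2925) follow the diagonal up to the most abundant loci.

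The scatter of F1 against C92 shows where on the scale of abundance the changes lay. Tested loci were divided by their mean level over the 6 libraries into 4 classes of equal size, with median levels of 2.01, 6.30, 15.1 and 43.9 FPKM. Rises of 2-fold or more made up 5.43% of the lowest class, then 1.48%, 0.940% and 0.748% toward the highest. Falls of 2-fold or more did not thin out in this way, at 1.86%, 2.22%, 2.15% and 2.57%. Loci that fell took a smaller part of the transcriptome in F1: 11.3%, 11.01% and 8.80% of the FPKM sum in F1 libraries 1, 2 and 3, against 16.2%, 19.5% and 17.8% in C92. Loci that rose took 11.7%, 11.9% and 12.96% in F1, against 8.11%, 7.49% and 7.66% in C92. These shares follow from how the loci were chosen and carry no test.

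Cellulose synthases were lower in F1 throughout. All 8 tested members of the list, catalytic subunits of the complexes that spin cellulose at the plasma membrane, fell, against 14% of all tested loci; a ninth written locus had been left out by its place. Their log2 fold changes ran from -1.14 to -0.51 with a median of -0.70, and the limma adjusted p from 0.000317 to 0.011. Together they held 630.3, 655.9 and 529.6 FPKM in F1, against 885, 989 and 981 FPKM in C92 and 687, 584 and 652 FPKM in MH63. Every F1 sum lay below every C92 sum, and the F1 and MH63 sums overlapped. In bulk shoots, fewer cells of a type and less RNA per cell cannot be told apart.

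The deepest falls were in the 2 tested members known for the secondary wall. Of 3 loci written for that wall, 1 had been left out by its place. The member on chromosome 1 had 37.4, 39.3 and 29.95 FPKM in F1, against 73.8, 81.0 and 81.9 FPKM in C92, with 40.2, 33.2 and 38.1 FPKM in MH63. It averaged 35.5 ± 4.93 FPKM in F1 and 78.9 ± 4.43 FPKM in C92 (SD, n = 3 each), which gave a log2 ratio of -1.14 (SE 0.12) at a limma adjusted p of 0.000317. The F1 values lay with those of MH63 and apart from C92. The member on chromosome 10 had 41.0, 43.8 and 32.0 FPKM in F1, against 74.8, 94.3 and 88.2 FPKM in C92, with 43.5, 33.4 and 37.9 FPKM in MH63. It averaged 38.9 ± 6.15 FPKM in F1 and 85.8 ± 9.95 FPKM in C92 (SD, n = 3 each), or -1.13 in log2 fold change (SE 0.14; limma adjusted p = 0.00104). Here too F1 and MH63 overlapped at levels below C92.

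The 6 members known for the primary wall also fell, with a median log2 fold change of -0.62. The most abundant of them by C92 level, on chromosome 5, had 153, 161.5 and 134 FPKM in F1, against 209, 226 and 227 FPKM in C92, with 164, 141 and 161 FPKM in MH63. Its log2 fold change was -0.57 (SE 0.10, limma adjusted p = 0.00464), with no overlap between F1 and C92. Whether the 2 tested secondary-wall members differed from the primary-wall members was not tested. All 8 members were lowest in F1 library 3 among the F1 libraries, yet all 8 also fell without that library (8.18% of all loci fell in that fit). With F1 library 1 or 2 as the only F1 library, 4 and 3 members fell, against 2.56% and 3.33% of all loci.

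Genes of lignin synthesis, which make the phenolic polymer of secondary walls, fell in part. Of 11 tested members of the list 7 fell, 0 rose and 4 were not called, against 14% of all tested loci that fell. The median log2 fold change was -0.68. The list summed to 1403, 1579.9 and 1202 FPKM in F1, against 1976, 2725 and 2344 FPKM in C92 and 1607, 1446 and 1594 FPKM in MH63. The most abundant member, on chromosome 8, had 587, 663 and 490.6 FPKM in F1, against 906, 1324 and 1051 FPKM in C92. Its log2 fold change was -0.91 (SE 0.16, limma adjusted p = 0.00485), and the groups did not overlap. At the other end of the list, the member on chromosome 5 with the smallest change had 140.0, 175.6 and 146.9 FPKM in F1, against 140.3, 171.6 and 185.8 FPKM in C92 (log2 fold change -0.10, limma adjusted p = 0.629). Without F1 library 3, 6 of the 11 fell, against 8.18% of all loci.

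Expansins, which loosen the wall of growing cells, moved the same way with less certainty. Of 13 tested members 6 fell, 5 of them at 2-fold or more, and 0 rose, with a median log2 fold change of -0.40. Over all tested loci 14% fell, and 2.2% at 2-fold or more. The expansin sums were 522, 529 and 399 FPKM in F1, against 572, 792 and 755 FPKM in C92. Without F1 library 3 the number that fell was 3 (8.18% of all loci), and without C92 library 2 it was also 3 (8.71%). Tubulins form the microtubules that guide cellulose deposition and also the mitotic spindle. Of 9 tested members 5 fell and 0 rose, against 14% and 9.97% of all loci, with a median of -0.50, and the list summed to 1559, 1669.8 and 1309 FPKM in F1, against 1876, 2182 and 1904 FPKM in C92. Here too the number that fell was 3 without F1 library 3 and 3 without C92 library 2. Of 6 tested loci of a brittle culm list, genes whose mutants are known for weak stems, 4 fell and 0 rose (median -0.54), though only 1 of the 6 could be placed and the gene table lacks the symbols of the other 5. The lignin, expansin, tubulin and brittle culm lists, and the division of the cellulose synthases by wall, were added after the counts of the cellulose synthase list had been seen, so they are no independent evidence of its direction. The cellulose synthase list was itself chosen with earlier results of these data known, so its count is a description.

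**Figure D2:**
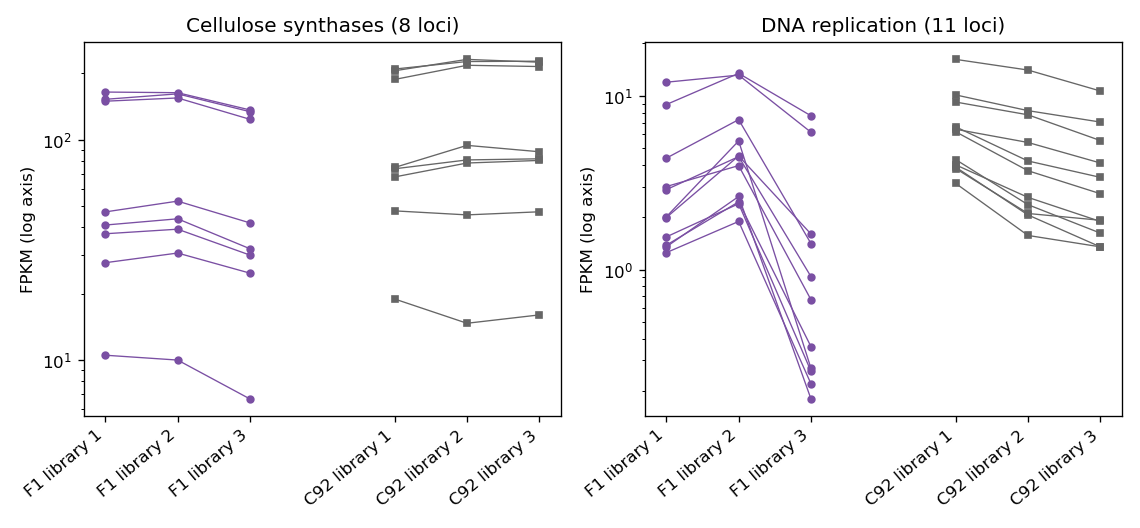
FPKM on a log axis of the 8 cellulose synthase loci (left) and the 11 DNA replication loci (right) in the 3 F1 libraries (violet) and the 3 C92 libraries (grey); lines join the values of a locus and imply no order of libraries. Cellulose synthases lie lower in all 3 F1 libraries, while replication loci are low in F1 library 3 and overlap C92 in library 2.

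Genes of dividing cells moved with these lists in F1 library 3, as the plot of cellulose synthase and replication loci shows. The 11 tested DNA replication loci, subunits of the replication machinery and its helicase, summed to 40.6, 61.6 and 19.7 FPKM in F1, against 73.8, 54.0 and 41.6 FPKM in C92 and 56.1, 83.5 and 42.8 FPKM in MH63. F1 library 3 was the lowest F1 library at 11 of 11 loci, and F1 library 2 lay inside the C92 range. Of the 11 loci, 0 were called by limma (adjusted p from 0.0948 to 0.987), and the median log2 difference from the C92 mean was -0.50, -0.02 and -1.51 in F1 libraries 1, 2 and 3. With F1 library 3 as the only F1 library, 5 of the 11 fell (12.8% of all loci then fell). A cell division list, added later, of cyclins and kinases of mitosis, behaved alike: 0 of 9 tested loci were called, and the sums were 20.96, 25.97 and 12.2 FPKM in F1, against 34.1, 25.6 and 25.7 FPKM in C92. The part of dividing cells in the falls of cellulose synthases, lignin genes, expansins and tubulins was not tested.

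**Figure D3:**
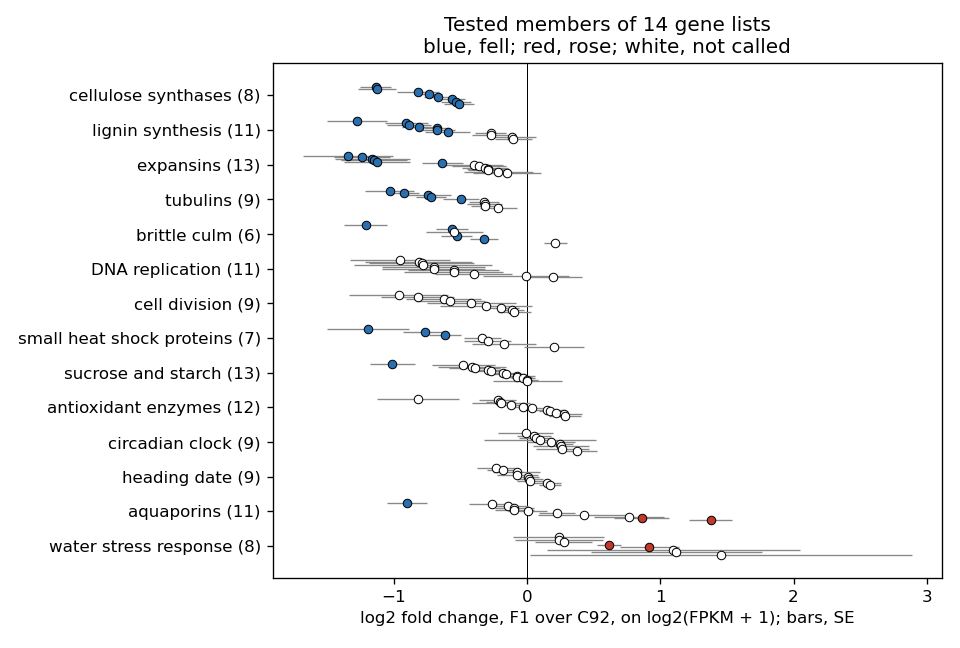
Log2 fold change of F1 over C92 on log2(FPKM + 1) for each tested member of 14 gene lists, with the standard error of the fit as bars; the number tested stands in parentheses. All 8 cellulose synthases are blue (fell), the 11 DNA replication loci are white (not called), and most members of the clock, heading date and antioxidant lists lie near 0.

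The calls in the other lists are read against 9.97% of all tested loci that rose and 14% that fell; the plot of list members by fold change shows them for the larger lists. Of 13 tested loci of sucrose and starch metabolism 1 fell, a member on chromosome 3 with 179, 168 and 119 FPKM in F1, against 326, 333 and 275 FPKM in C92 (log2 fold change -1.01, limma adjusted p = 0.00334). Of 7 tested small heat shock proteins, chaperones that bind unfolded proteins, 3 fell, with a list median of -0.34. Of 9 circadian clock loci and 9 heading date loci 0 were called by limma, as were 0 of 12 antioxidant enzymes. The 8 tested loci of the Rubisco and Calvin cycle list had log2 fold changes between 0.14 and 0.37, and 1 rose; of 15 loci written for it only 2 could be placed, and 7 placed elsewhere were left out. Of 11 photosystem antenna loci, which bind the chlorophyll of the light-harvesting complexes, 1 fell and of 12 photosystem subunits 1 fell, though only 1 member of each of these 2 lists could be placed. In both lists 1 further member was listed at 0 in all 6 libraries, and whether that gene was silent was not tested.

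Water-related lists held few calls. Aquaporins are channels that pass water through membranes; of 11 tested members 2 rose and 1 fell, against 9.97% and 14% of all loci. Without F1 library 3, and likewise without C92 library 2, 1 of them rose (5.62% and 5.76% of all loci). A member on chromosome 7 had 12.2, 14.6 and 12.7 FPKM in F1, against 3.81, 4.45 and 5.14 FPKM in C92, with 12.4, 17.8 and 11.7 FPKM in MH63 (log2 fold change 1.38, SE 0.16, limma adjusted p = 0.000617). F1 and MH63 overlapped and both lay above C92. The member that fell, on chromosome 4, had 168, 183 and 122 FPKM in F1, against 298, 303 and 273 FPKM in C92, with 185, 158 and 162 FPKM in MH63 (log2 fold change -0.90, SE 0.15, limma adjusted p = 0.0031). Of 8 tested loci of a water stress response list, dehydrins and other genes known from drying tissue, 2 rose (1 where F1 library 3 or C92 library 2 was left out), and all 8 fold changes were positive, from 0.24 to 1.46 with a median of 0.77. Their libraries scattered widely: the member with the highest fold change had 19.03, 4.25 and 27.8 FPKM in F1, against 1.58, 20.2 and 1.69 FPKM in C92, and was not called (limma adjusted p = 0.493).

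Defence lists differed from member to member, and their counts too stand beside 9.97% risen and 14% fallen among all loci. Of 12 loci of the diterpenoid clusters, which make antimicrobial phytoalexins, 3 were tested and 9 lay below the filter. The member that rose, on chromosome 2, had 11.1, 10.5 and 18.8 FPKM in F1, against 0.02, 0 and 0 FPKM in C92. In MH63 it had 42.8, 49.75 and 29.4 FPKM. It passed the filter through its F1 values alone, so its call is not given as evidence of the rise. F1 thus lay between parents that were far apart. Of 7 tested loci of the salicylate and WRKY defence list 2 rose (1 where F1 library 3 or C92 library 2 was left out) and 1 fell. Of 10 gibberellin loci 1 rose and 1 fell, and of 10 nitrogen assimilation loci 1 rose and 1 fell. Among 5 reference genes, commonly used to normalise PCR, 1 fell, and of 7 large chaperones (HSP70, HSP90 and HSP101) 1 rose. Without F1 library 3 the rise in this last list and the gibberellin fall were not called. Nor were the rises in the Rubisco and Calvin cycle list and the root markers. Of the small heat shock proteins, 2 fell without that library, against 8.18% of all loci.

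Among loci with a call at 2-fold or more and no overlap between the groups, the 4 with the largest differences in mean FPKM, 2 in each direction, are named by ID. LOC_Os03g19427, on chromosome 3, had 955, 968 and 804 FPKM in F1, against 471, 534.5 and 119 FPKM in C92 and 733, 611 and 859 FPKM in MH63. C92 library 3 was far below the other C92 libraries. The locus averaged 909 ± 91.1 FPKM in F1 and 375 ± 224 FPKM in C92 (SD, n = 3 each), or 1.54 in log2 fold change (SE 0.47; limma adjusted p = 0.0424). Without C92 library 3 the log2 fold change was 0.85 (adjusted p = 0.0166), under the 2-fold limit by which the locus was named. The call was lost without F1 library 1, 2 or 3 (adjusted p = 0.0928, 0.0932 and 0.0924) and with the 6 F1 and C92 libraries alone (adjusted p = 0.0687). The tested locus before it in ID order held between 0.600 and 0.662 of its level in all 9 libraries, so the pair may share reads and is uncertain.

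LOC_Os01g10400, on chromosome 1, had 939.95, 899 and 981 FPKM in F1, against 525, 290.5 and 513 FPKM in C92 and 543, 349 and 576 FPKM in MH63. Its F1 libraries exceeded every library of either parent. The log2 fold change over C92 was 1.13 (SE 0.25, limma adjusted p = 0.0117). Without C92 library 2 the log2 fold change was 0.85, under the 2-fold limit by which the locus was named. LOC_Os01g41710, also on chromosome 1, was the fallen locus with the largest difference in FPKM: 2092, 1369 and 1098 FPKM in F1, against 2667, 4418 and 3117 FPKM in C92 and 1927, 1985 and 2179 FPKM in MH63. F1 libraries 2 and 3 lay below every parental library, and library 1 within the MH63 range. The log2 fold change was -1.18 (SE 0.26, limma adjusted p = 0.0105). With no filter on low values the adjusted p was 0.0684. The log2 fold change was -0.97 without F1 library 3 and -0.98 without C92 library 2, each under the 2-fold limit in size. LOC_Os01g41710 is also the fallen member of the photosystem antenna list, so it is no separate result. The 10 other tested loci of that list were not called.

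LOC_Os10g06000, on chromosome 10, had 320.3, 320.6 and 162 FPKM in F1, against 723, 1071 and 794 FPKM in C92 and 434, 363 and 451 FPKM in MH63. All 3 F1 libraries lay below all libraries of both parents, and library 3 lowest. It averaged 268 ± 91.7 FPKM in F1 and 863 ± 184 FPKM in C92 (SD, n = 3 each), or -1.73 in log2 fold change (SE 0.26; limma adjusted p = 0.0022). The 4 tested loci before it in ID order also fell, with log2 fold changes of -1.41, -1.10, -1.16 and -1.24. The run of 5 averaged from 40.8 to 489.6 FPKM in F1 and from 111 to 1012 FPKM in C92. Whether its members share reads was not tested. Strand is not stated, which makes genes that overlap an antisense partner uncertain as well.

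Runs of neighbours with the same call were short. Along the ID order, 20 runs of at least 4 tested loci fell together, the longest of 7, and 13 runs rose together, the longest of 6. By chromosome, between 21.4% (chromosome 2) and 28.4% (chromosome 11) of the tested loci were called. Chromosome 11 also had the highest share of rises of 2-fold or more, 3.58%, and chromosome 5 the lowest, 1.24%. In windows of 50 tested loci, rises of 2-fold or more reached 20% (10 loci) between LOC_Os04g24160 and LOC_Os04g27810, and falls reached 16% (8 loci) between LOC_Os04g04950 and LOC_Os04g09654. The median window held 2%. These windows, both on chromosome 4, were chosen for their values. They are the first of 24 and 28 windows tied at those shares. In windows of 100 loci, the first at the highest share of rises (13%) was also on chromosome 4. The first at the highest share of falls (12%) was on chromosome 10, between LOC_Os10g01810 and LOC_Os10g06000.

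Seen library by library, the changes at called loci differed in size among the 3 F1 libraries. The loci were called on these same libraries, so a direction shared by all 3 follows from the choice. Loci that fell had a median log2 difference from the C92 mean of -0.59, -0.59 and -0.85 in F1 libraries 1, 2 and 3. For loci that rose it was 0.51, 0.58 and 0.64, and over all tested loci 0.02, 0.03 and -0.01. Among the 459 loci that fell 2-fold or more, library 3 was the farthest from C92 at 380 (82.8%), library 1 at 45 and library 2 at 34. Among the 448 that rose 2-fold or more, library 3 was the farthest at 290 (64.7%). Library 3 helped choose these loci, so the counts carry no test. As the plot of differences by library shows, the C92 libraries lay close to their mean in both classes, with library 1 lowest and library 2 highest among fallen loci.

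**Figure D4:**
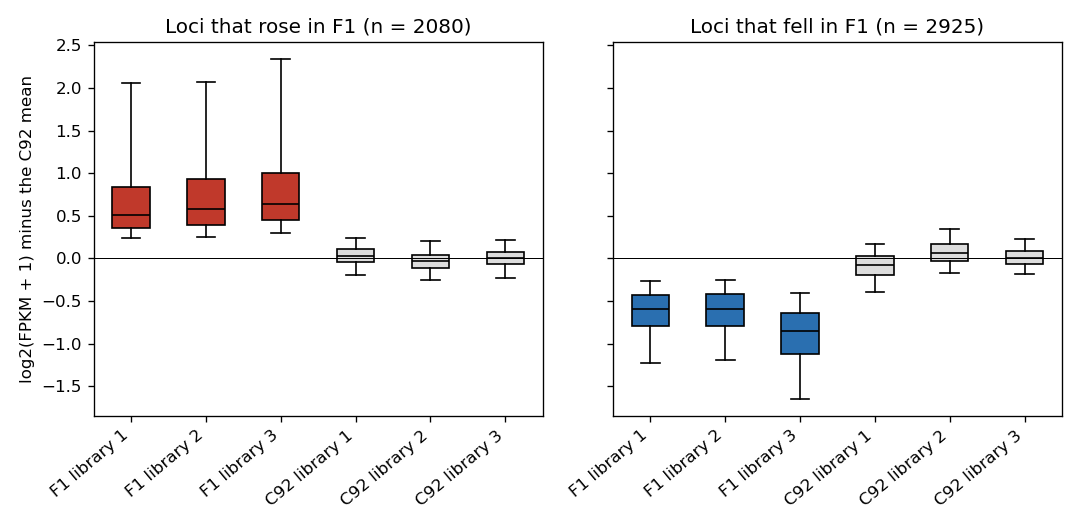
Log2(FPKM + 1) minus the C92 mean in each F1 and C92 library, for the 2080 loci that rose (left) and the 2925 that fell (right) in F1; boxes span the 25th to 75th and whiskers the 5th to 95th percentile of loci. Library 3 has the lowest median among fallen loci, -0.85, against -0.59 in F1 libraries 1 and 2.

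With a single F1 library set against the 3 C92 libraries, the count depended on which was used. Library 3 alone gave 1362 risen loci (6.53%) and 2677 fallen loci (12.8%). Library 1 alone gave 426 (2.04%) and 533 (2.56%), and library 2 alone 663 (3.18%) and 695 (3.33%). A lone library is assumed to vary like the other groups. At 2-fold or more the counts risen and fallen were 533 and 1120 for library 3, 313 and 215 for library 1, and 409 and 238 for library 2. Fallen loci thus outnumbered risen ones at 2-fold or more with library 3 alone, while risen ones were more numerous with library 1 or 2 alone.

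The parent MH63 shares the C92 libraries as its reference, so its differences are given only side by side. At the 448 loci that rose 2-fold or more, the median log2 difference from the C92 mean was 1.41, 1.48 and 1.72 in the F1 libraries and 2.22, 2.20 and 2.16 in the MH63 libraries. At the 459 loci that fell 2-fold or more it was -1.05, -1.07 and -1.48 in the F1 libraries and -0.90, -0.997 and -1.07 in the MH63 libraries. The loci were chosen for a 2-fold difference of F1 from C92, which sets a minimum for the F1 difference and none for that of MH63, so the 2 sets of medians are not compared.

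Where the parents themselves differed by 2-fold or more with a call, each F1 library was placed on a scale from 0, the C92 level, to 1, the MH63 level. Only tested loci were used, and their filter read F1 and C92 but not MH63. A locus under 1 FPKM in every C92 library entered only with at least 1 FPKM in every F1 library. Of 148 loci at 0 in C92 and at least 1 FPKM in MH63, 80 were tested, against 319 of 319 the other way. The number and positions of loci higher in MH63 thus depend on the filter, and the 2 classes are not compared. At the 730 loci higher in MH63 the median positions were 0.380, 0.346 and 0.498 in F1 libraries 1, 2 and 3. At the 1386 loci higher in C92 they were 0.445, 0.439 and 0.554. At these loci library 3 was nearest to MH63 in both classes on 12 of 12 chromosomes. The chromosomes come from the same library and are not replicates. Over all tested loci, its correlation with the MH63 libraries was no higher than that of library 1. At loci higher in C92 its chromosome medians ran from 0.506 to 0.671, those of library 1 from 0.424 to 0.506 and those of library 2 from 0.355 to 0.484. The plot of positions by chromosome shows this on each of them, with the highest library 3 medians on chromosome 7, at 0.601 for loci higher in MH63 and 0.671 for loci higher in C92.

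**Figure D5:**
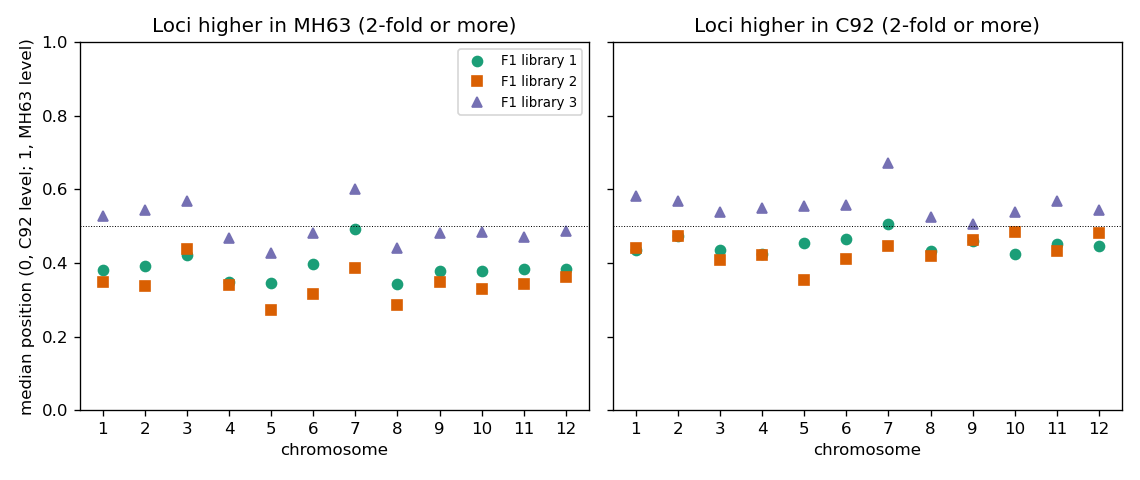
Median position of each F1 library between the C92 level (0) and the MH63 level (1) by chromosome, for tested loci at least 2-fold higher in MH63 (left) or in C92 (right). The dotted line marks the middle. Library 3 (triangles) lies nearest to MH63 on all 12 chromosomes in both panels.

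A small group of loci was present in F1 and listed at 0 in C92. In all, 80 loci had at least 1 FPKM in every F1 library and 0 in every C92 library, and all 80 had at least 1 FPKM in every MH63 library. Their median level was 3.17, 2.65 and 3.71 FPKM in F1 libraries 1, 2 and 3, against 7.01, 6.96 and 6.49 FPKM in MH63. The MH63 mean was above the F1 mean at 77 of the 80. They lay on every chromosome, from 1 locus on chromosome 7 to 12 on chromosome 4. F1 library 3 was the highest F1 library at 60 of the 80 and library 2 the lowest at 57. The reverse, 0 in every F1 library and at least 1 FPKM in every C92 library, was met by 2 loci, with C92 values of 2.17, 1.06 and 2.36 FPKM on chromosome 4 and of 1.22, 1.67 and 2.34 FPKM on chromosome 6. The first of these was also at 0 in MH63, and the other had 4.60, 1.12 and 2.28 FPKM there.

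F1 was also measured at loci listed at 0 in only 1 parent, chosen without the F1 values; whether a listed 0 reflects absent expression or unmatched reads was not tested. At 148 loci with 0 in every C92 library and at least 1 FPKM in every MH63 library, the F1 libraries held a median of 0.396, 0.335 and 0.480 of the MH63 mean. Library 3 was the highest F1 library at 102 of them and library 2 the lowest at 94. At 319 loci with 0 in every MH63 library and at least 1 FPKM in every C92 library, the F1 libraries held 0.569, 0.544 and 0.476 of the C92 mean. Library 3 was the lowest F1 library at 213 of these. Of the 319 loci, 249 fell in F1, against 14% of all tested loci. These loci were chosen with the C92 values, so the count of falls carries no test. At these loci library 3 thus held more of the MH63 level and less of the C92 level than F1 libraries 1 and 2. The replication loci were also lowest in library 3, at a sum of 19.7 FPKM against 40.6 and 61.6 FPKM in F1 libraries 1 and 2, and their part in this difference was not tested.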

How the data were processed

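Polyadenylated RNA of shoots was sequenced in 9 libraries, 3 of F1, 3 of C92 and 3 of MH63. Per the labels' protocols, random hexamers primed the cDNA, which was then broken up by nebulization. Reads were aligned with HISAT2 2.0.5, per the submitters' processing notes; the build, annotation and counting program are not given in the sources at hand. The authors deposited FPKM values, 1 per locus and library. Read totals are unknown, so no counting interval is given. Relative depth is the commonest ratio between 2 libraries of their values from 0.2 to 1.5 FPKM; ratios chained over 3 libraries closed to within 0.022 on the log2 scale.

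Computed here were fits with limma 3.58.1 under R 4.3.3. The response was log2(FPKM + 1) of the 9 libraries together, with a mean per group, an intensity trend and no covariate; tests were two-sided with Benjamini-Hochberg adjustment over 20859 loci. The fit was tested on simulated data. Tables were made in Python 3.11.15. Same-numbered libraries were not treated as pairs. The members and lists were chosen with earlier results of these data known. Of the lists, 7 were added after first counts had been seen. A listed locus was dropped where the table (RefSeq, for symbols only) places its symbol over 0.03 of the chromosome length away. The named loci are the 2 risen and 2 fallen with the largest difference in mean FPKM among calls at 2-fold or more without overlap. Alternatives varied the libraries, block, pseudocount, filter, scaling, variance prior and window. Proteins, which the series title names, were not analysed here.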

Additional observations from a re-analysis of the deposited data

How the results depend on the processing

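Alternatives left 87 counts or shares within 1.5 times of the main value and moved 29. No named locus changed sign, but rises outnumbered falls at 2-fold or more without F1 library 3 (407 and 252), with no filter (441 and 423), without C92 library 2 (409 and 332) and with F1 library 1 or 2 alone. Falls of 2-fold or more numbered 799 at a pseudocount of 0.1 (beside 619 rises), and rises of 2-fold or more numbered 173 at a mean of at least 5 FPKM. When single libraries were left out, 2879 to 4508 loci were called, 252 to 623 fell 2-fold or more (252 without F1 library 3) and 407 to 471 rose 2-fold or more. Fallen list members then numbered 8 to 8 for cellulose synthases, 6 to 6 for lignin synthesis, 3 to 3 for expansins, 3 to 3 for tubulins and 3 to 4 for brittle culm, over leaving out F1 library 3 and C92 library 2. Loci listed at 0 in C92 numbered 82 to 97 and loci listed at 0 in F1 numbered 2 to 2. With F1 library 3 alone, 1120 loci fell 2-fold or more. F1 library 1 alone gave 959 called loci and 215 falls of 2-fold or more, with 4 cellulose synthases, 1 lignin, 0 expansin, 3 tubulin and 1 brittle culm loci fallen. F1 library 2 alone gave 1358 called loci and 238 such falls, with 3, 2, 0, 1 and 1 in the same lists. Loci at 0 in C92 were 51 with at least 2 FPKM in F1 and 129 with at most 0.1 FPKM in C92; those at 0 in F1 were 0 with at least 2 FPKM in C92. Windows of 100 loci held at most 13% rises of 2-fold or more. The cause of these shifts was not tested beyond the loss of libraries or loci.

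With the replicate number as a block, 4396 loci were called. Same-numbered F1 and C92 libraries deviated together with correlations of 0.346, 0.041 and 0.214, and not every library correlated best with its own number, so the libraries share only a number. With the block, 2 DNA replication loci fell. Median-ratio scaling and quantile normalization called 5094 and 5568 loci and left all 8 cellulose synthases fallen. The 4 named loci kept their call in 59 cases and lost it in 13, of which 8 were LOC_Os03g19427; LOC_Os10g06000 kept it in all 18. At an unadjusted p below 0.05, 7878 loci passed. Without read totals, the counting error of low loci is unknown.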
